A study of Macaca mulatta with 11 samples.

Results

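PGR encodes the nuclear progesterone receptor. Its transcript was followed in the cumulus cells of the rhesus monkey (Macaca mulatta), a somatic layer that encloses and nourishes the oocyte. The array annotation assigns the symbol PGR to 1 probe set (MmugDNA.1632.1.S1_at, gene identifier 613024), so this is 1 gene of 14132 with a single symbol, and 1 probe set of 52766. RNA was amplified, labelled with biotin and measured on 11 Affymetrix Rhesus arrays. The series compared cumulus cells matured in culture with those matured in the animal and used cells from before maturation as the starting point. The 4 PM arrays hold cells of immature cumulus-oocyte complexes after stimulation with follicle-stimulating hormone (FSH) only, the 3 IVM arrays cells after FSH stimulation and in vitro maturation, and the 4 VVM arrays cells after FSH stimulation and in vivo maturation with human chorionic gonadotropin (hCG). All 3 groups thus share FSH stimulation, and hCG is named for VVM only. Any hormones in the culture medium of IVM are not described here. The hours between hormone or culture and collection are not given in the sources used here. No label states that replicates came from different animals, and the p-values here therefore reflect the spread among these samples alone, which may be technical.

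The progesterone receptor is a transcription factor that is activated by progesterone, held ready by heat shock protein chaperones and tuned by coactivators and corepressors. In granulosa cells of the preovulatory follicle the gonadotropin surge switches PGR on through cyclic AMP and the epidermal growth factor (EGF)-like signals that follow, and mice without the receptor fail to release their oocytes. Proteases such as ADAMTS1 and transcription factors such as PPARG are among the genes known to depend on it in the mouse follicle. The isoforms PR-A and PR-B arise from the same gene, and which of them this probe set reads is not analysed here.

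Of 12 measured markers of cumulus and granulosa cells, the labelled cell type, 12 lay above the array median on every PM and IVM array and 11 to 12 on the VVM arrays. By the same measure 8 to 9 of 11 epithelial, 7 of 11 theca and stroma and 6 to 8 of 10 endothelial markers lay above it, so this count alone does not single out cumulus cells. The mean log2 level of the 12 granulosa markers was 10.80 to 10.99 in PM, 9.99 to 10.7 in IVM and 9.18 to 9.92 in VVM, and no mean of the epithelial, stroma or endothelial list exceeded 7.07. Of 13 measured leukocyte markers, 6 to 7 lay above the array median on PM arrays, 6 to 8 on IVM arrays and 8 to 12 on VVM arrays, and the mean log2 level of all 13 was 5.50 to 5.67, 5.56 to 5.60 and 5.71 to 7.71. From PM to VVM 7 of the 13 rose and 2 fell, 69.2% called against 39.8% of all genes (18.0% higher and 21.8% lower). The 2 that fell were CSF1R (9.95 to 10.21 in PM, 6.49 to 8.75 in VVM) and ITGAM (5.88 to 6.68 in PM, 5.43 to 6.08 in VVM). The mean of LYZ, TYROBP, CD14 and PTPRC, 4 of these genes used as a covariate below, was 4.24 to 4.56 in PM, 4.50 to 4.70 in IVM and 5.36 to 8.70 in VVM. VVM 3, at 8.70, and VVM 2, at 7.48, stood apart. PM 1 had the highest mean of 10 oocyte markers, 7.13, with 9 of them above its median. The hybridization controls, labelled bacterial and phage transcripts spiked into the sample, read 10.16 to 10.51 in PM, 11.75 to 12.41 in IVM and 10.70 to 11.59 in VVM, so that IVM did not overlap the other groups. The 3′ minus 5′ signal of GAPDH and ACTB, a measure of RNA or amplification quality, was 3.20 to 3.45 in PM, 3.67 to 4.36 in IVM and 3.44 to 3.90 in VVM.

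PGR was highest after maturation in culture. On the log2 intensity scale the IVM arrays read 7.49, 7.06 and 7.18. The PM arrays read 5.52, 5.94, 5.74 and 4.90, and the VVM arrays 6.0, 5.33, 5.69 and 6.25. All 3 IVM arrays lay above all 8 others, whereas the PM and VVM values overlapped. The group means were 7.24 ± 0.22 (SD, n = 3) in IVM, 5.82 ± 0.40 (SD, n = 4) in VVM and 5.53 ± 0.45 (SD, n = 4) in PM, which correspond to geometric mean intensities of 151, 56.4 and 46.1. PGR lay 1.74 above the array median in IVM but 0.36 above it in VVM and 0.17 in PM, and fell below it on PM 4 and VVM 2. Its level in PM and VVM is therefore close to that of the typical probe set, and a fold against those groups may be understated.

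**Figure D1:**
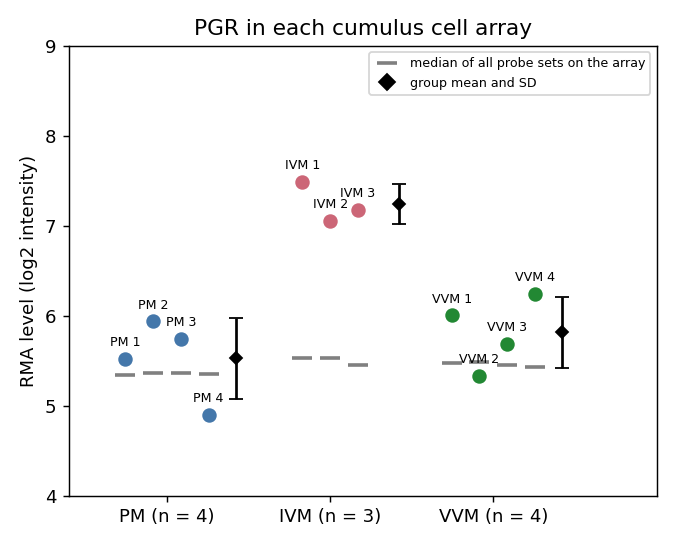
PGR level (log2 intensity) on each of the 11 arrays, grouped as PM, IVM and VVM; diamonds and bars give the group mean and SD, and grey dashes the median of all probe sets on that array. The 3 IVM arrays lie between 7.06 and 7.49, above every PM and VVM array, and PM 4 and VVM 2 lie below their array medians.

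The comparison of IVM with VVM asks whether culture and the hCG-treated animal leave cumulus cells with the same transcript levels. PGR was 2.68-fold higher in IVM (95% interval 1.80 to 3.99), a log2 difference of 1.42 ± 0.26 (SE, limma, Benjamini-Hochberg adjusted p = 0.00576). The lowest IVM array stood 0.81 above the highest VVM array. Of all genes, 16.7% passed the adjusted threshold of 0.05 in this comparison, 9.06% higher and 7.63% lower in IVM. Of the 1280 genes called higher, 162 had a larger difference than PGR. The exact two-sided permutation test over the 7 arrays gave p = 0.0571, the smallest that its 35 arrangements allow. Each array could be left out with the difference staying between 1.26 and 1.57 and the call kept (highest adjusted p = 0.0239).

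Inside VVM high leukocyte levels went with low PGR. VVM 2 and VVM 3, with the highest leukocyte means, had the lowest PGR values of that group, 5.33 and 5.69. Without PM 1, VVM 2 and VVM 3 the difference was 1.12 and no longer passed (adjusted p = 0.0664), and with the leukocyte mean as a covariate it was 1.03 (adjusted p = 0.119). In bulk RNA, fewer cumulus cells in a sample and less PGR RNA per cell cannot be told apart. With the hybridization control level as a covariate the difference was 1.36 (adjusted p = 0.163). Beyond these fits the part of either measure in the result was not tested.

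**Figure D2:**
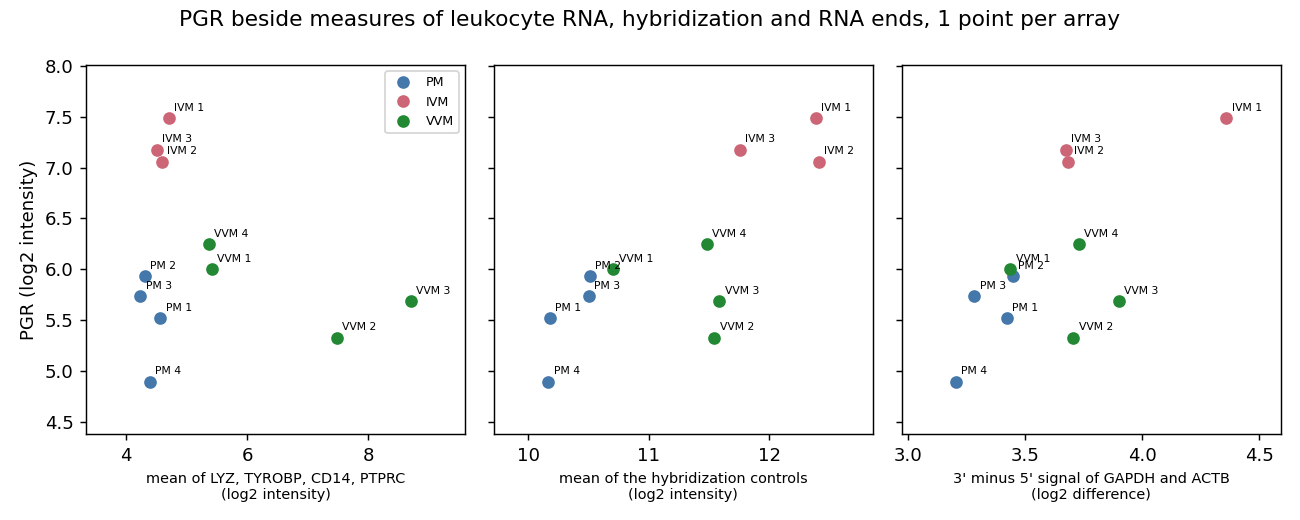
PGR level (log2 intensity, vertical axis) of each array against the mean of 4 leukocyte genes, the mean of the hybridization controls (both log2 intensity) and the 3′ minus 5′ signal (log2 difference). The IVM arrays have leukocyte means of 4.50 to 4.70, near those of PM, and the highest hybridization control levels, 11.75 to 12.41; VVM 2 and VVM 3 combine high leukocyte means with low PGR.

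The comparisons with PM describe the change during maturation by each route, and they share the PM arrays. PGR rose 3.28-fold in culture (95% interval 2.21 to 4.88), by 1.72 ± 0.26 on the log2 scale (adjusted p = 0.000567). The lowest IVM value lay 1.12 above the highest PM value. In this comparison 45.9% of genes were called, 25.0% higher and 20.9% lower, and 229 of the 3539 genes called higher rose more than PGR. The exact permutation p was 0.0571, again the smallest possible. The call was lost when the hybridization control level entered the fit (1.59, adjusted p = 0.429). That covariate separates IVM from PM completely, and with it no gene passed in this comparison in limma, although 2099 had an unadjusted p under 0.05.

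In the animal PGR did not pass. The VVM minus PM difference was 0.29 ± 0.24 (95% interval -0.24 to 0.82), a 1.23-fold ratio with an interval of 0.848 to 1.77 (adjusted p = 0.385). The exact two-sided permutation p was 0.371, where 0.0286 was the smallest that 70 arrangements allow. Of all genes, 39.8% were called in this comparison, 18.0% higher and 21.8% lower. The interval leaves room for a small rise or fall, and a rise as large as the one in culture lies outside it. With the leukocyte covariate the estimate was 0.72, and it did not pass in any of 25 alternative fits (lowest adjusted p = 0.192). The IVM minus VVM contrast above is also the test of whether the 2 routes changed PGR by different amounts.

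**Figure D3:**
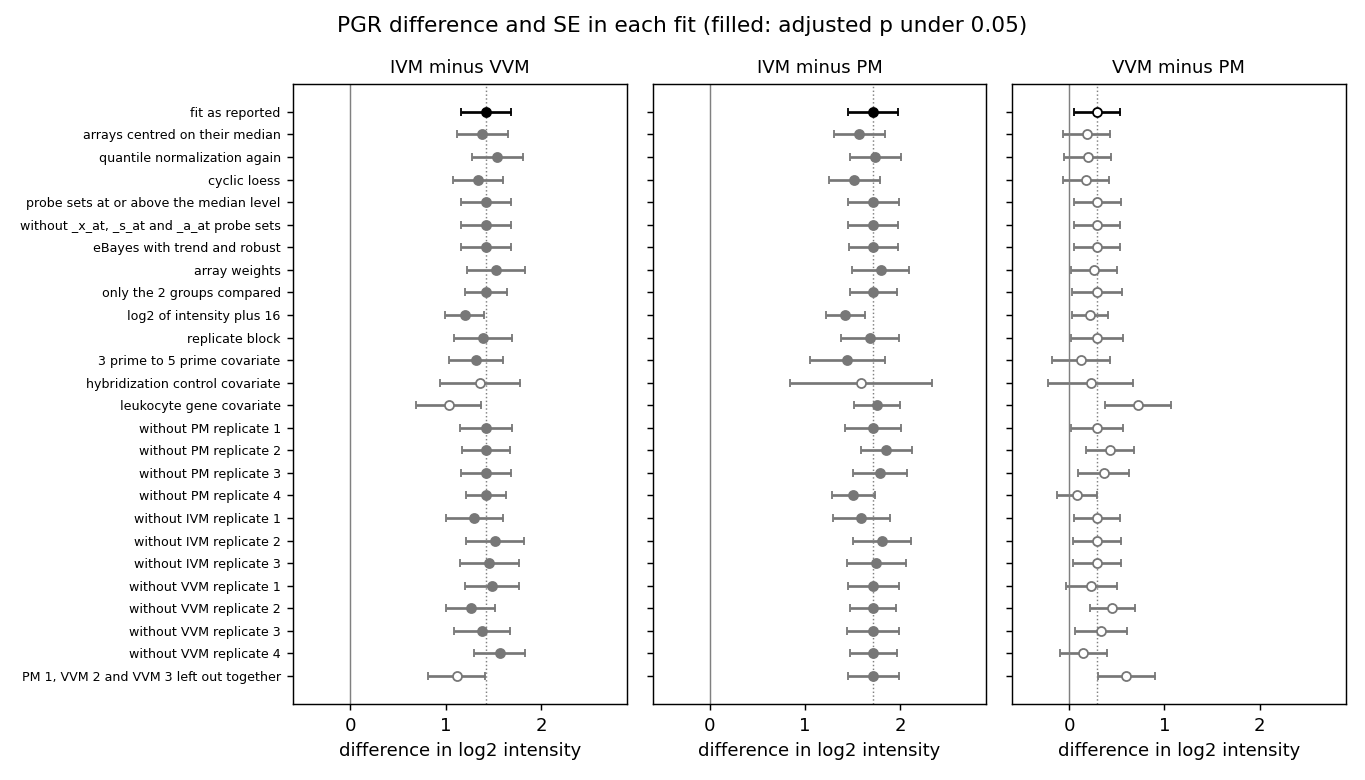
PGR difference with its SE (log2 intensity, horizontal axis) in the fit as reported and in 25 alternatives, for IVM minus VVM, IVM minus PM and VVM minus PM; filled points passed an adjusted p of 0.05. The IVM minus VVM estimates lie between 1.03 and 1.57 with 3 open points, the IVM minus PM estimates between 1.42 and 1.85 with 1 open point, and all VVM minus PM points, 0.08 to 0.72, are open.

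Among 11 measured receptors of progesterone and other steroids, 2 exceeded their VVM level in IVM and 1 was lower (2 and 2 with centred arrays, repeated quantile normalization or cyclic loess), with a median difference of -0.15 against 0.08 over all genes. Besides PGR these were ESR2, the β oestrogen receptor, and NR3C1, the glucocorticoid receptor. NR3C1 ran opposite to PGR. It read 8.40, 8.14, 7.96 and 8.23 in PM, 6.55, 6.19 and 6.88 in IVM, and 7.68, 7.57, 7.45 and 8.02 in VVM. The IVM arrays were the lowest without overlap. NR3C1 was lower in IVM than in VVM (log2 difference -1.14 ± 0.18, adjusted p = 0.0032) and fell by 1.64 ± 0.18 from PM to IVM (adjusted p = 8.7e-05), although only 1 of its 3 probe sets passed. ESR2 was higher in IVM than in VVM by 0.85 ± 0.21 (adjusted p = 0.0229), with IVM 2 highest at 7.92 and the others at 6.90 and 7.11 against 6.32 to 6.53 in VVM. This call was lost without VVM 1 and in 4 other alternatives, and 2 of 3 ESR2 probe sets passed.

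The membrane-associated progesterone receptor components PGRMC1 and PGRMC2, haem-binding proteins that are not nuclear receptors, fell from PM to IVM by 0.81 ± 0.21 and 0.77 ± 0.17 (adjusted p = 0.0118 and 0.0043). PGRMC1 lost its call without IVM 2. Against VVM neither passed, with differences of -0.34 and -0.54 for PGRMC1 and PGRMC2. The membrane progestin receptors PAQR5, PAQR6 and PAQR7 passed in no comparison, with IVM minus VVM differences of 0.01, -0.89 and 0.22. PAQR6 was spread widely within groups, from 6.10 to 8.97 in VVM. PAQR9, of the same family, was dim and rose by 0.81 ± 0.25 from PM to VVM (adjusted p = 0.0312), a call lost in 12 alternatives. ESR1, the α oestrogen receptor, fell by 0.70 ± 0.13 from PM to VVM (adjusted p = 0.00262) and had an IVM minus PM difference of -0.38 that did not pass. The membrane oestrogen receptor GPER1 passed in no comparison. PAQR8 and NR3C2 were not analysed here. From PM, 2 of the 11 receptors rose and 3 fell in IVM, 45.5% against 45.9% of all genes, and 1 rose and 2 fell in VVM, 27.3% against 39.8%. The rises in IVM were PGR and ESR2 (0.57 ± 0.21, adjusted p = 0.047), and ESR2 lost that call in 20 of 25 alternatives, among them the one without IVM 2. These 2 shares from PM are at or below those of all genes. Between IVM and VVM 27.3% of the receptors were called, PGR among them, against 16.7% of all genes. Without PM 1, VVM 2 and VVM 3, limma called 3 receptors lower in IVM than in VVM and 0 higher, with 3 higher at an unadjusted p under 0.05. With the leukocyte covariate it called 2 lower and 0 higher (2 higher unadjusted), and with the hybridization control covariate 0 either way (1 higher and 1 lower unadjusted).

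Of 15 measured genes that ovulation research links to PGR, as its targets or as partners in cumulus expansion, 4 were lower in IVM than in VVM. None was higher by limma, and 0 were higher at an unadjusted p under 0.05. The 4 are 26.7% of the measured genes, where 7.63% of all genes were called lower. Among the 4, AREG is also counted with the upstream signals below. The list named 25 genes, and ADCYAP1, EDN2, PRKG2, SNAP25 and PTGS2 were among those not measured under a single symbol. The median IVM minus VVM difference of the 15 was -0.35, against 0.08 over all genes. From PM, 7 rose and 2 fell in IVM, where 25.0% of all genes rose and 20.9% fell, and 10 rose and 1 fell in VVM, where 18.0% rose and 21.8% fell; the median changes were 0.51 and 1.53, against 0.12 and 0.04 over all genes. Without PM 1, VVM 2 and VVM 3, 3 genes were called lower in IVM than in VVM and 5 rose from PM to VVM. The 7 rises in IVM became 2 with the 3′ to 5′ covariate, and the 10 in VVM became 4 with the hybridization control covariate and 6 with the leukocyte covariate; either of these last covariates left 2 genes lower in IVM than in VVM.

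ADAMTS1, a secreted protease that cleaves versican in the ovulating follicle, read 4.48, 5.29, 5.28 and 5.25 in PM, 7.79, 7.98 and 8.23 in IVM, and 9.83, 8.40, 11.01 and 7.93 in VVM. Both matured groups lay above PM and overlapped each other. ADAMTS1 rose by 2.92 ± 0.58 in IVM and 4.22 ± 0.54 in VVM, and its IVM minus VVM difference of -1.29 ± 0.58 did not pass (adjusted p = 0.185). Its relative ADAMTS9 rose by 4.18 ± 0.28 and 5.54 ± 0.26 and was lower in IVM than in VVM (difference -1.36 ± 0.28, adjusted p = 0.0104), with IVM at 11.72, 11.31 and 10.76 and VVM at 12.12 to 12.85. The lysosomal protease CTSL rose in VVM by 0.92 ± 0.16, differed from PM by an uncalled 0.13 in IVM, and was lower in IVM than in VVM (-0.79 ± 0.18, adjusted p = 0.0147). The CTSL call was lost without IVM 1 or without IVM 2.

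The largest difference of the list was that of AREG, an EGF-like ligand that carries the gonadotropin signal to cumulus cells. AREG read 4.41, 4.70, 4.32 and 5.44 in PM, 8.08, 6.29 and 5.52 in IVM, and 11.05, 11.66, 12.36 and 10.40 in VVM. The groups were fully separated in that order. AREG was lower in IVM than in VVM (log2 difference -4.73 ± 0.58, adjusted p = 0.000757) and rose from PM by 6.65 ± 0.54 in VVM. Its rise of 1.92 ± 0.58 in IVM lost its call without PM 1, PM 3 or IVM 1. HAS2, which makes the hyaluronan of the expanding cumulus matrix, rose by 2.61 ± 0.58 in IVM and 2.29 ± 0.54 in VVM, with PM 2 at 6.90 far above the other PM arrays (4.35 to 4.72).

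The transcriptional regulators of the list split. CITED2, a coactivator-binding protein, was lower in IVM than in VVM (difference -2.12 ± 0.36, adjusted p = 0.00415), at 9.14, 8.97 and 8.0 against 10.97, 10.71, 10.98 and 10.63. From PM it rose by 1.53 ± 0.34 in VVM, while its IVM minus PM difference of -0.59 did not pass. ZBTB16, a zinc finger factor known as a progestin and glucocorticoid target, rose by 2.70 ± 0.27 in IVM and 3.05 ± 0.25 in VVM, and the matured groups overlapped (IVM minus VVM -0.35, adjusted p = 0.44). RUNX1 rose by 1.67 ± 0.36 in VVM and differed by an uncalled 0.74 in IVM. PPARG, a fatty acid-sensing nuclear receptor, fell by 1.15 ± 0.28 in IVM and by 1.0 ± 0.26 in VVM. The hypoxia factor EPAS1 passed in no comparison.

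Of the others, RGS2, a brake on G protein signalling, rose by 5.65 ± 1.01 in IVM and 5.61 ± 0.94 in VVM, with PM 1 at 10.83 and the other PM arrays at 5.89 to 6.30. The amino acid transporter SLC38A3 rose by 0.51 ± 0.13 and 0.55 ± 0.12. The chemokine receptor CXCR4 fell by 2.13 ± 0.42 from PM to IVM, and its IVM minus VVM difference of -1.38 missed the threshold (adjusted p = 0.0577) although the groups did not overlap. IL6 and the efflux pump ABCB1 passed in no comparison.

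**Figure D4:**
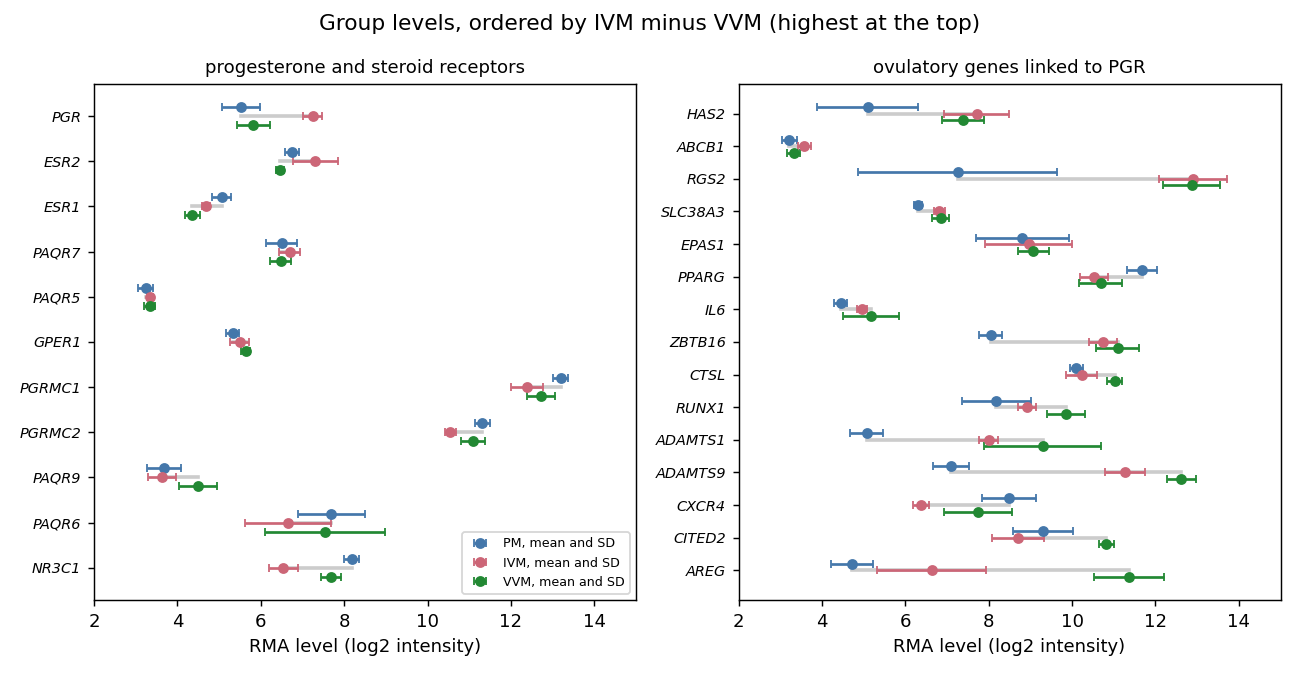
Group means with SD (log2 intensity) of 11 steroid receptor genes and 15 ovulatory genes linked to PGR in PM (n = 4), IVM (n = 3) and VVM (n = 4), ordered by IVM minus VVM; levels are not comparable between genes. PGR is at the top of the receptors and NR3C1 at the bottom, and AREG, at the bottom of the ovulatory genes, has the largest gap between IVM and VVM.

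Of 20 measured chaperones and coregulators through which steroid receptors act, 3 rose and 14 fell in IVM and 3 rose and 13 fell in VVM, against falls of 20.9% and 21.8% of all genes. The median changes were -0.78 and -0.83 against 0.12 and 0.04 over all genes. The 14 became 9 with the 3′ to 5′ covariate, and the 13 became 4 with the hybridization control covariate, 6 with the leukocyte covariate and 8 without PM 1, VVM 2 and VVM 3. Between IVM and VVM 2 were higher and 5 lower, 35% called against 16.7% of all genes (9.06% higher and 7.63% lower). The 2 and 5 became 1 and 3 without IVM 2. Counts of lower genes were 2 with the hybridization control covariate, 2 without PM 1, VVM 2 and VVM 3, and 1 with the leukocyte covariate. NCOA2, a coactivator that binds steroid receptors, was lower in IVM than in VVM (difference -1.73 ± 0.21, adjusted p = 0.000638) and fell by 2.79 in IVM and by 1.06 in VVM. The corepressors NRIP1 and NCOR1 were lower in IVM than in VVM as well (-1.45 ± 0.32 and -1.30 ± 0.32), but NRIP1 lost its call without IVM 2, and NCOR1 without IVM 1, IVM 2, VVM 1 or VVM 2. DNAJB1, an HSP40 co-chaperone, differed by -1.30 ± 0.26 (adjusted p = 0.00871). FKBP5, the immunophilin of receptor complexes and itself induced by progestins and glucocorticoids, rose by 2.26 ± 0.30 in IVM and 2.80 ± 0.28 in VVM. Its PM arrays read 5.80 to 6.03 and all 7 matured arrays 7.82 to 9.36, and IVM and VVM overlapped (difference -0.54, adjusted p = 0.28).

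Of 21 measured genes known to respond to progestins in uterus, breast and other tissues, 7 were lower in IVM than in VVM. None was higher by limma (1 higher at an unadjusted p under 0.05). The 7 are 33.3% of the list, where 7.63% of all genes were called lower. The median IVM minus VVM difference of the 21 was -0.54, against 0.08 over all genes. From PM 7 rose and 3 fell in IVM, 47.6% called against 45.9% of all genes, and 9 rose and 1 fell in VVM, 47.6% against 39.8%; the share in IVM is near that of all genes. The 7 rises in IVM became 2 with the 3′ to 5′ covariate, 5 without IVM 2 and 4 without PM 1, VVM 2 and VVM 3. The 9 in VVM became 3 and 4 with the hybridization control and leukocyte covariates. With arrays centred on their medians the IVM counts were 4 and 4, and with cyclic loess 3 and 3. The largest called IVM minus VVM differences were those of IGFBP1, the decidual insulin-like growth factor binding protein (-4.13 ± 0.71, adjusted p = 0.00431), and GADD45A, a stress response gene (-3.04 ± 0.63, adjusted p = 0.0104). IGFBP1 read 5.00, 4.37 and 3.46 in IVM and 8.06, 8.08, 10.27 and 7.21 in VVM, without overlap. MAOA, which breaks down monoamines, differed by -1.61 ± 0.46 and lost its call without any array other than PM 2 or PM 3, and the WNT inhibitor DKK1 by -1.37 ± 0.31, a call lost without IVM 2. Without PM 1, VVM 2 and VVM 3, 1 gene was called lower in IVM than in VVM, and without IVM 2 the count was 2. It was 4 with the 3′ to 5′ covariate and 0 in limma with either the hybridization control or the leukocyte covariate, where 9 and 4 were lower at an unadjusted p under 0.05.

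Of 16 measured genes of steroid synthesis and metabolism, 5 exceeded their VVM level in IVM and 1 was lower. The list holds enzymes of oestrogen and glucocorticoid as well as of progesterone, so its counts do not describe the receptor's ligand alone. The median IVM minus VVM difference was 0.07 against 0.08 over all genes. From PM 8 rose and 3 fell in IVM, and 4 rose and 4 fell in VVM. The called shares were 37.5%, 68.8% and 50.0%, against 16.7%, 45.9% and 39.8% of all genes. The 5 became 3 without IVM 2 or with the leukocyte covariate and 0 in limma with the hybridization control covariate (3 at an unadjusted p under 0.05), and the 8 became 3 with the 3′ to 5′ covariate. HSD3B2, which converts pregnenolone to progesterone, read 10.56, 9.96, 11.05 and 11.38 in PM, 13.27, 12.65 and 12.49 in IVM, and 9.58, 11.05, 11.07 and 10.74 in VVM. HSD3B2 was higher in IVM than in VVM by 2.19 ± 0.40 (adjusted p = 0.00568), with IVM apart from both other groups and a VVM minus PM difference of -0.13 that did not pass. CYP19A1, the aromatase that makes oestrogen, was higher in IVM than in VVM by 1.91 ± 0.41; from PM it fell by 1.96 ± 0.38 in VVM and had an uncalled difference of -0.05 in IVM. HSD17B1, which makes oestradiol, was higher by 1.83 ± 0.46, a call lost without IVM 2, IVM 3, VVM 1 or VVM 4. HSD11B1, which regenerates active glucocorticoid, was lower in IVM than in VVM (-3.90 ± 0.58, adjusted p = 0.00217) and rose from PM in both, by 3.87 in IVM and 7.77 in VVM.

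The signals known to switch PGR on were lower in IVM than in VVM where they were called, except for GATA4. Of 22 measured genes, 1 was higher and 5 lower, with a median difference of -0.58 against 0.08 over all genes; from PM 4 rose and 11 fell in IVM, and 4 rose and 8 fell in VVM. The called shares were 27.3%, 68.2% and 54.5%, against 16.7%, 45.9% and 39.8% of all genes. The 5 became 2 with the hybridization control covariate. The 11 became 6 with the 3′ to 5′ covariate, and the 8 became 3 with each of the 3 covariates and without PM 1, VVM 2 and VVM 3. BTC, an EGF-like ligand like AREG, read 4.79, 5.48 and 5.41 in IVM and 8.61, 7.38, 7.76 and 7.37 in VVM, and differed by -2.55 ± 0.38 (adjusted p = 0.00217); 1 of its 2 probe sets passed. CEBPA, a transcription factor of granulosa cell luteinization, differed by -2.47 ± 0.52 (adjusted p = 0.0114) and rose from PM by 3.93 in IVM and 6.40 in VVM. The orphan nuclear receptor NR4A1, an immediate early gene, differed by -2.14 ± 0.24 (adjusted p = 0.000547). GATA4, also a granulosa marker, was not among the 4 largest differences and is named because it was the single gene of this list called higher in IVM, after its value was seen (1.31 ± 0.23, adjusted p = 0.00421).

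Over all 6 lists, 102 of 137 genes were measured, and 32 were called between IVM and VVM, 10 higher and 22 lower, 31.4% against 16.7% of all genes. From PM, 64 were called in IVM (62.7% against 45.9%) and 57 in VVM (55.9% against 39.8%). The lists were written with earlier results of these data known, so these shares are a description and not a test of the pathway. The shares of all genes cover genes of every level and were not matched to the lists. Leaving out IVM 2 lowered the IVM minus VVM count to 21. Of the 43 named calls between IVM and VVM, 5 held with the hybridization control covariate, 15 with the leukocyte covariate and 26 without PM 1, VVM 2 and VVM 3. Of the 37 named calls between IVM and PM, 0 held in limma with the hybridization control covariate, with which no gene of any list passed there (25 at an unadjusted p under 0.05), 23 with the 3′ to 5′ covariate, 36 with the leukocyte covariate and 35 without those 3 arrays. Of the 30 named calls between VVM and PM, 11, 22, 15 and 19 held in the same order.

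The genes whose pattern was most like that of PGR were sought among 8273 genes with a mean log2 level of at least 6, by Pearson correlation over the 11 arrays. These values are a description: the arrays form 3 groups, and 82.5% of the variance of PGR lay between the groups, so any gene that separates IVM from the rest scores highly. FSTL3, a secreted inhibitor of activin, was first with r = 0.965 (Spearman's rho 0.946). It read 9.40, 10.31, 9.50 and 8.85 in PM, 11.83, 11.51 and 11.69 in IVM, and 10.18, 9.98, 10.06 and 10.37 in VVM. Inside the groups FSTL3, like PGR, had PM 4 lowest and PM 2 highest in PM, and VVM 2 lowest and VVM 4 highest in VVM. The correlation of the deviations from the group means was 0.835. These deviations also enter the r by which genes were ranked, so correlations inside the groups are not separate support.

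Next came INTS10, a subunit of the Integrator complex (r = 0.944), ENKD1, a microtubule-binding protein (0.937), and DGKA, a diacylglycerol kinase (0.931). NDUFB4, a subunit of respiratory complex I, had r = 0.927, COPS3, of the COP9 signalosome, 0.920, RASSF5, a RAS effector, 0.917, and TBCA, a tubulin cofactor, 0.911. The ninth gene, at 0.910, was hardly less like PGR, and 15 genes had r over 0.9. The correlations inside the groups were lower for these 7 genes, from 0.471 for RASSF5 to 0.765 for COPS3. Each r rests on 1 probe set, and several of these genes have more. Called higher in IVM than in VVM were 1 of 3 INTS10, 1 of 2 DGKA, 1 of 2 NDUFB4, 1 of 4 COPS3 and 1 of 5 RASSF5 probe sets.

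The most opposite genes were NR4A1 (r = -0.948), PHF6, a chromatin reader (-0.936), SUV39H1, a histone methyltransferase (-0.927), and EIF4E3, a cap-binding protein (-0.926), and 15 genes had r under -0.9. NR4A1 is therefore in the list of upstream signals and also the gene least like PGR: it read 11.94, 11.59, 11.50 and 12.26 in PM, 9.09, 8.90 and 9.29 in IVM, and 10.61, 11.62, 11.43 and 11.28 in VVM. In IVM it lay below all other arrays without overlap. Called lower in IVM than in VVM were 2 of 2 NR4A1, 1 of 3 PHF6, 1 of 1 SUV39H1 and 2 of 4 EIF4E3 probe sets.

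**Figure D5:**
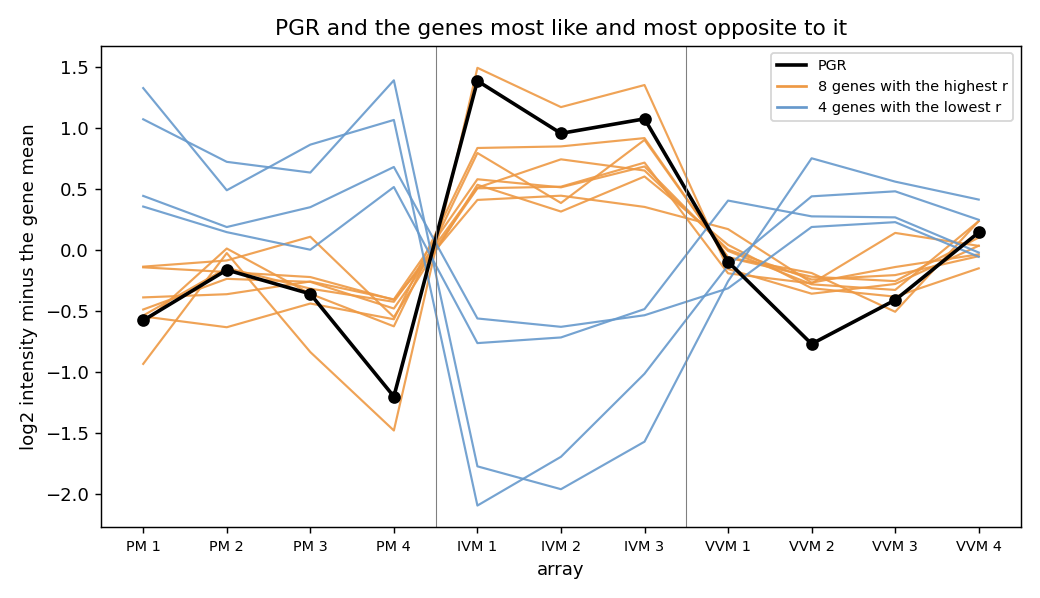
Level of PGR, of the 8 genes with the highest and of the 4 with the lowest Pearson correlation with it, on each array (log2 intensity minus the gene's mean over the 11 arrays). PGR is high on the 3 IVM arrays and lowest on PM 4; the 8 like genes, r of 0.911 to 0.965, rise with it on the IVM arrays, and the 4 opposite genes, r of -0.948 to -0.926, are low there.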

How the data were processed

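The authors deposited 1 intensity per probe set, computed with Affymetrix Expression Console and RMA per the submitters' processing notes, with no versions stated; RMA corrects background, brings the arrays to 1 distribution and summarises each probe set. The values are linear, so log2 was taken, with no pseudocount. The 99 control probe sets were left out, and 52766 were tested. No detection values were used, and array number limits the precision. A gene was represented by its single-symbol probe set with the highest mean, and 24629 of 25330 annotation rows matched RefSeq by gene identifier.

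Group means were compared over all 11 arrays in limma 3.58.1 (R 4.3.3), tested on simulated data, with two-sided p-values adjusted by Benjamini-Hochberg over all probe sets; under 0.05 counts as called. Exact permutation tests were added for PGR. Arrays with the same replicate number had residual correlations of -0.107 to 0.101 over 10 pairs, so the numbers were not used as a pairing.

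The rule named every measured receptor and ovulatory gene, up to 4 called genes of each other list with the largest IVM minus VVM difference, and the 8 most and 4 least correlated genes. PGR and the lists were chosen with earlier results of these data known. Alternatives changed normalization, filters, prior, weights, pseudocount, arrays used and covariates; leaving out PM 1, VVM 2 and VVM 3 together was chosen after seeing the data. Sequences were not used here, and genome order served only to find the genes next to PGR.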

Additional observations from a re-analysis of the deposited data

Results flagged for a closer look

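Among 126 groups of 4 arrays (63 named genes in PM and VVM), 11 held an outlying array by Dixon's ratio. This ratio, the gap to the nearest other value divided by the range of the 4, exceeded its 95% critical value for that group size. Chance gives about 5%. None of the 11 was a PGR value. In PM they were ADAMTS1 on PM 1 (4.48, low), RGS2 on PM 1 (10.83, high), LYZ on PM 1 (4.10, high), PPARG on PM 2 (11.14, low), IL6 on PM 2 (4.22, low), HAS2 on PM 2 (6.90, high), GATA4 on PM 2 (11.32, high), TYROBP on PM 2 (4.51, low) and IGFBP1 on PM 4 (5.61, high). In VVM they were EPAS1 on VVM 3 (9.63, high) and DNAJB1 on VVM 4 (10.82, low). PM 1, which held 3 of them, also had the highest oocyte marker mean, 7.13; the part of this in the values was not tested.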

How the results depend on the processing

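PGR kept its direction in all 25 alternatives of each comparison. IVM minus VVM lost its call with the hybridization control covariate (1.36), the leukocyte covariate (1.03) and without PM 1, VVM 2 and VVM 3 together (1.12), and ranged from 1.26 to 1.57 over single arrays left out; IVM minus PM lost it with the hybridization covariate (1.59) and ranged from 1.51 to 1.85; VVM minus PM ranged from 0.08 to 0.45 over single arrays left out and up to 0.72 over all alternatives, and was never called. The cause was not tested. With the replicate block the PGR differences were 1.39, 1.68 and 0.29, and no PGR call changed; the numbers do not pair these samples. Genes called between IVM and PM numbered 2442 with the 3′ to 5′ covariate and 0 with the hybridization covariate (2099 at unadjusted p under 0.05); between IVM and VVM 274 (hybridization), 1215 (leukocyte), 1393 (3 arrays left out) and 1423 to 2268 (1 left out); between VVM and PM 3298 (3′ to 5′), 1368, 2461 and 3025 in the same order. Of the list genes, 29 and 0 (25 unadjusted) were called between IVM and PM with the 3′ to 5′ and hybridization covariates; 6, 15, 20 and 21 to 33 between IVM and VVM; and 22, 29 and 34 between VVM and PM. Reversals were BTC in VVM minus PM (0.0885) and CXCR4 in IVM minus PM (0.28), both with the hybridization covariate, and the uncalled HAS2 in IVM minus VVM (-0.26 leukocyte, -0.076 with 3 arrays left out, -0.0867 to 0.68 with 1 left out). Over 120 gene results, 2590 of 2978 values kept direction and call, 367 lost and 16 gained the call, and 5 reversed; of 900 list counts, 730 stayed within 1.5 times. Another 31 uncalled differences of receptor and ovulatory genes (-1.03 to 0.74) were not followed singly; 21 turned sign and 8 were called in some alternative. Centring arrays on their medians moved the median IVM minus PM difference of all genes from 0.12 to -0.03 and the share of calls that were higher from 54.5% to 37.9%, and in VVM minus PM from 45.3% to 32.6%; PGR was then 1.38, 1.57 and 0.19. PGR has 1 probe set, so the planned comparison of other PGR probe sets could not be run.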

Other observations

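Of the genes next to PGR in RefSeq order, CCDC82, JRKL, CNTN5 and ARHGAP42 on one side and CEP126 on the other were measured. Limma called 0 of them higher in IVM than in VVM (none at an unadjusted p under 0.05), where 9.06% of all genes were called higher. In so few genes a count of 0 is near that share. TRPC6, ANGPTL5 and CFAP300 were not measured under a single symbol. JRKL was lower in IVM than in VVM (log2 difference -0.50 ± 0.13, adjusted p = 0.0345), although 1 of its 3 probe sets passed. CCDC82, a coiled-coil protein, rose from PM in both matured groups, by 1.28 ± 0.23 in IVM and 1.82 ± 0.21 in VVM. Of its 2 probe sets 1 passed in IVM and 2 in VVM, and 1 was called lower in IVM than in VVM. ARHGAP42 fell by 1.43 ± 0.39 in IVM and by 1.07 ± 0.37 in VVM, with 1 of its 2 probe sets passing in each. The probe sets representing CNTN5 and CEP126, both dim here, passed in no comparison. However, 1 of the 2 CEP126 probe sets was called higher in IVM than in PM.

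Of 12 measured granulosa markers, 7 were called higher in IVM than in VVM, against 9.06% of all genes, and 0 lower (0 lower at an unadjusted p under 0.05). The 7 became 4 without IVM 2, 3 with the leukocyte covariate and 0 in limma with the hybridization control covariate (5 at an unadjusted p under 0.05). From PM 1 rose and 6 fell in IVM, 58.3% called against 45.9% of all genes, and 9 fell in VVM, 75% against 39.8%. INHBB, which encodes an activin and inhibin subunit, was higher in IVM than in VVM by 1.64 ± 0.42, a call lost when IVM 2, IVM 3, VVM 1, VVM 3 or VVM 4 was dropped. Among markers of other cell types, 1 of 11 epithelial genes (KRT19, 2.32 ± 0.44), 1 of 11 stroma genes (LUM, 0.65 ± 0.12) and 1 of 10 oocyte genes (ZP1, 0.65 ± 0.18) were higher in IVM than in VVM. These shares, 9.09%, 9.09% and 10%, are near the 9.06% of all genes called higher. Of 10 endothelial genes ENG was higher (1.35 ± 0.15) and VWF lower (-1.76 ± 0.51), 20% called against 16.7% of all genes. Of 13 leukocyte genes 3 were lower, 23.1% against 7.63% of all genes. They were LYZ (-3.20 ± 0.90), TYROBP (-2.69 ± 0.68) and MAMU-DRA (-2.75 ± 0.73), and each lost its call without VVM 2, among other arrays. ZP1 and VWF lost theirs in 15 and 17 alternatives.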
